A study of Mus musculus with 8 samples.

Results

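The genes of the MHC class II pathway were examined in the whole blood of mice after 7 days of restraint stress (RST). Every probe set of the arrays whose only annotated gene was H2-Aa, H2-Ab1, H2-Eb1, H2-DMa, H2-DMb1, H2-DMb2, H2-Oa, H2-Ob, Cd74 or Ciita was included, which gave 19 of the 45101 probe sets and 9 of the 10 genes. H2-DMb1 had no probe set of its own. The 4 RST mice were female C57BL/6J mice, purchased at 6 to 8 weeks of age, that were held in ventilated tubes for 6 h per day. The 4 control mice were of the same sex, strain and age, were left in their cages and were denied food and water during the same hours, a deprivation that both groups shared. Blood was drawn on Day 7, and the RNA of each mouse was amplified, biotin-labeled and hybridized to an Affymetrix GeneChip of its own. The deposited values are log2 expression levels, so that 1 unit is a 2-fold difference. The number of arrays limits the precision.

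MHC class II molecules display peptides from endosomes to CD4+ T cells. In the mouse the classical molecules are pairs of an alpha and a beta chain, I-A (H2-Aa with H2-Ab1) and I-E (the H2-Eb1 chain with its alpha partner). New pairs are held and escorted by the invariant chain, Cd74, whose last fragment is exchanged for peptide by H2-DM, and H2-O inhibits H2-DM. Ciita is the coactivator without which class II promoters stay largely silent. B cells, dendritic cells and some monocytes carry these molecules in blood, whereas H2-O is known mainly from B cells, and H2-Oa, H2-Ob and H2-DMb2 were grouped as B cell-restricted genes, against the genes shared by all these cells. Mice of this strain make no I-E alpha chain, and the 3 probe sets of its gene, H2-Ea, lay between 1.25 and 3.62 in the 8 mice, none of them past the intensity filter.

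Of the 10 genes, 8 lie together on chromosome 17 while Ciita and Cd74 lie on other chromosomes. The promoters of class II genes are known for a shared module of S, X and Y boxes, to which the RFX complex, CREB and NF-Y bind and on which Ciita sits. RefSeq promoter windows of build GRCm38.p6, from 250 bases before to 50 bases after a gene's start, were matched by symbol for 7 of the 10 genes. The stretch from 170 to 21 bases before the start is given for 2 classical chains and for the 3 B cell-restricted genes, to show the letter matches found in both sets. Capitals mark an X box match, a Y box match (CTGATTGG), the Y box core (ATTGG) or an S box match (GGACCTT), each on either strand.
H2-Aa, chr17:34287844-34287993, minus strand: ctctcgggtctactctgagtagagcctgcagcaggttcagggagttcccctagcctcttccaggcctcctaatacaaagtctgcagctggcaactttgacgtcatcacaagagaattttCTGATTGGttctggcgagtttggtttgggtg
H2-Eb1, chr17:34305697-34305846, plus strand: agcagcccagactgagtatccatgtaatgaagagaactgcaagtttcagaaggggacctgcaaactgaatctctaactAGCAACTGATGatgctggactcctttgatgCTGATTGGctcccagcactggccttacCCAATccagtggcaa
H2-Oa, chr17:34092209-34092358, plus strand: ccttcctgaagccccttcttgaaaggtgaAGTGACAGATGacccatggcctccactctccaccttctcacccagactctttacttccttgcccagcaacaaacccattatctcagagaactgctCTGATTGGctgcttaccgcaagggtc
H2-Ob, chr17:34238735-34238884, plus strand: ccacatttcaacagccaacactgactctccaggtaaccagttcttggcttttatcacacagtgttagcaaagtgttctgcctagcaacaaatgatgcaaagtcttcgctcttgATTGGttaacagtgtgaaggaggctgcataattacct
H2-DMb2, chr17:34145079-34145228, plus strand: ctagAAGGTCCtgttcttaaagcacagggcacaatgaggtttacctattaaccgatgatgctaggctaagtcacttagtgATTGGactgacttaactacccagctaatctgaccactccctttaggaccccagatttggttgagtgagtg
The full Y box was found in H2-Aa, H2-Eb1 and H2-Oa, with its first base 51, 62 and 46 bases before the start, and 4.1% of all 32851 RefSeq windows hold it. The X box letters were found in H2-Eb1, H2-Oa and H2-DMb1, against 0.968% of all windows, with their first base 92, 141 and 95 bases before the start. In H2-Oa they lie farther from the Y box (141 and 46) than in H2-Eb1 (92 and 62). Whether the H2-Oa match is the X box of the module was not tested. Among the 7 windows the S box letters were found only in that of H2-DMb2, against 3.33% of all windows. The core ATTGG lies inside the full Y box and was added after the windows had been read. It was present in all 7 genes with a window, but also in 37.4% of all windows. These are matches of letters and not measured binding sites.

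All 9 measured class II genes averaged lower in RST mice, by 1.84-fold to 2.33-fold, and 67.6% of the 11762 genes tested averaged lower as well. The 9 genes had a median of −0.98 in log2 fold change (RST minus control), against −0.24 for the median gene tested, a distance of −0.74. Each gene is represented by its brightest probe set, and these 9 probe sets were above the median of the array in all 8 mice, so that the intensity filter (above the array's median in at least 2 mice of a group) did not select among them. In 6 of the 9 genes each RST mouse lay below each control mouse, and 6.57% of all genes tested did so. None of the 9 genes passed limma's adjusted threshold (adjusted p under 0.05 and more than 1.5-fold), and neither did any of the 25084 probe sets tested (0%). At an unadjusted p under 0.05 and more than 1.5-fold, 8 of the 9 were lower, and 12.8% of all genes tested were. In whole blood, fewer cells of a type, less RNA per cell and a larger share of RNA from other cells cannot be told apart.

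**Figure D1:**
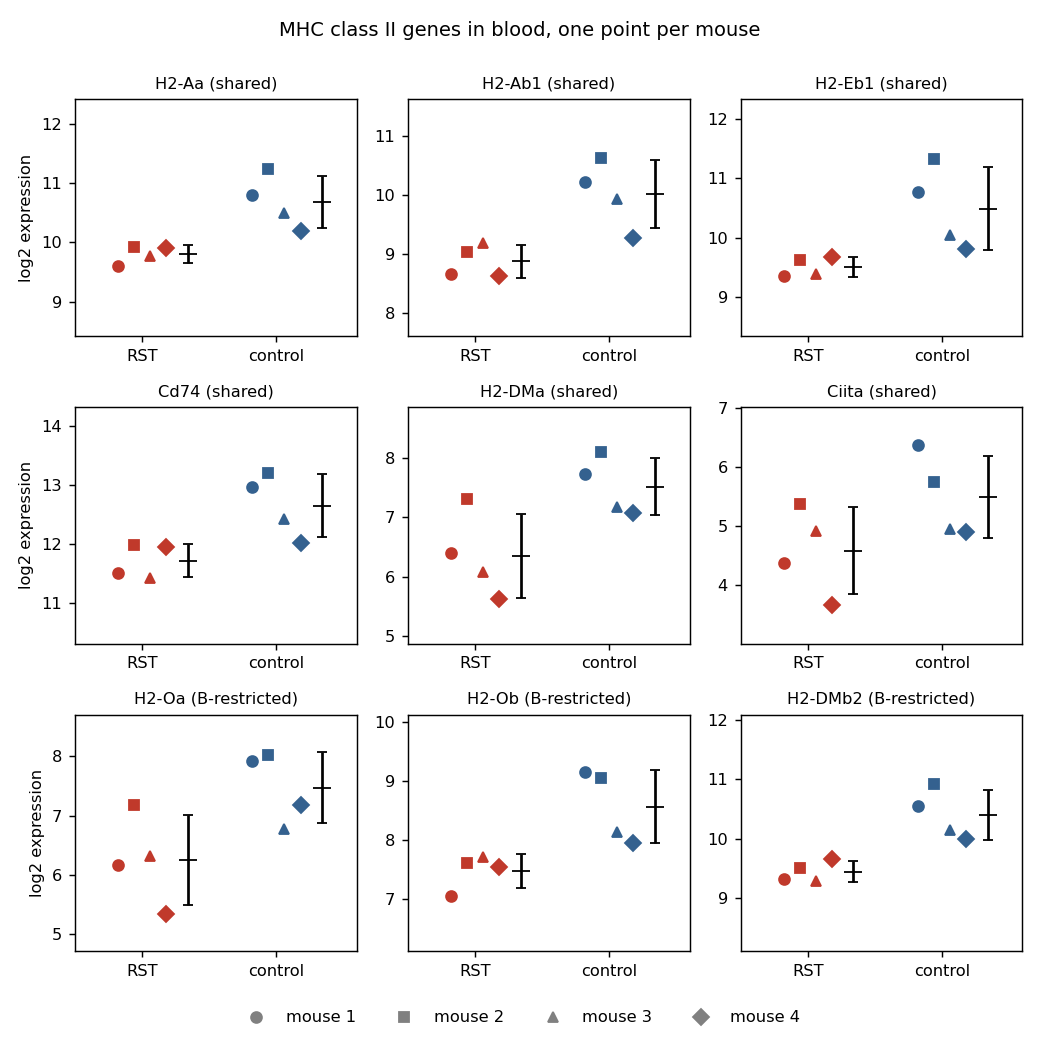
Log2 expression of 9 class II genes at their brightest probe sets in the blood of 4 RST (red) and 4 control (blue) mice, with 1 marker shape per mouse number and black bars for mean ± SD. RST and control mice did not overlap for H2-Aa, H2-Ab1, H2-Eb1, Cd74, H2-Ob and H2-DMb2, and control mice 1 and 2 were the highest in every panel.

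The peptide-binding chains were lower in all RST mice. H2-Ab1, the beta chain of I-A, was at 8.67, 9.03, 9.20 and 8.63 in RST mice 1 to 4, against 10.22, 10.63, 9.93 and 9.28 in control mice 1 to 4. The highest RST mouse was just below the lowest control mouse. The means were 8.88 ± 0.28 in RST mice and 10.02 ± 0.57 in control mice (SD, n = 4 each), which gave a log2 fold change of −1.13 (standard error, SE, 0.32, limma adjusted p = 0.32, two-sided exact permutation test p = 0.029). With 4 mice against 4, 0.029 is the smallest p this exact test can give.
H2-Aa, the alpha chain of I-A, was at 9.61, 9.93, 9.77 and 9.91 in RST mice, against 10.81, 11.23, 10.50 and 10.19 in control mice, without overlap. Its log2 fold change was −0.88 (SE 0.28, limma adjusted p = 0.32, exact permutation p = 0.029). H2-Eb1, the beta chain of I-E, is transcribed in this strain although its partner is not made. It was at 9.35, 9.62, 9.39 and 9.67 in RST mice, against 10.77, 11.33, 10.04 and 9.81 in control mice, again without overlap. Its log2 fold change was −0.98 (SE 0.34, limma adjusted p = 0.32, exact permutation p = 0.029). The SD of H2-Eb1 was 0.16 in RST mice and 0.70 in control mice, and control mice 1 and 2 were well above the other two.

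Cd74, the invariant chain, was at 11.52, 11.99, 11.43 and 11.94 in RST mice, against 12.96, 13.20, 12.43 and 12.01 in control mice. The groups did not overlap, although RST mouse 2 was just below control mouse 4. Its log2 fold change was −0.93 (SE 0.31, limma adjusted p = 0.32, exact permutation p = 0.029).
H2-DMa, the alpha chain of the peptide exchanger, was at 6.40, 7.30, 6.08 and 5.62 in RST mice, against 7.72, 8.11, 7.17 and 7.08 in control mice. Here the groups overlapped, because RST mouse 2 was above control mice 3 and 4. The log2 fold change was −1.17 (SE 0.38, limma adjusted p = 0.32, exact permutation p = 0.086). Of the beta chains of H2-DM, H2-DMb2 had probe sets of its own and H2-DMb1 did not. A pair of probe sets is annotated to both H2-DMb1 and H2-DMb2, neighbouring and similar genes, and these had log2 fold changes of −0.77 and −0.84 with overlapping groups.

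Ciita was the member with the least clear difference. Its brightest probe set was at 4.39, 5.38, 4.92 and 3.67 in RST mice, against 6.37, 5.74, 4.95 and 4.91 in control mice. RST mice 2 and 3 lay within the range of the control mice. The log2 fold change was −0.90 (SE 0.43, limma adjusted p = 0.38, exact permutation p = 0.14). It was −0.60 without RST mouse 4, an array on which 41.5% of the tested probe sets had their lowest value of the 8 mice. The other Ciita probe sets were at −0.45 and −0.80, and their groups overlapped too.

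The B cell-restricted genes were lower to a similar extent. H2-Ob, the beta chain of H2-O, was at 7.06, 7.61, 7.72 and 7.54 in RST mice, against 9.14, 9.05, 8.14 and 7.95 in control mice. The groups did not overlap, and the log2 fold change was −1.09 (SE 0.33, limma adjusted p = 0.32, exact permutation p = 0.029). A further probe set, annotated to H2-Ob and the gene model Gm20506 together, was at −1.06.
H2-Oa, the alpha chain of H2-O, was at 6.17, 7.19, 6.31 and 5.34 in RST mice, against 7.92, 8.02, 6.78 and 7.17 in control mice. RST mouse 2 reached the level of control mouse 4 and exceeded control mouse 3, so that the groups overlapped. Its log2 fold change of −1.22 (SE 0.41, limma adjusted p = 0.32, exact permutation p = 0.086) was the lowest of the 9 genes, and it was −0.92 without RST mouse 4.
H2-DMb2, a second beta chain of H2-DM, was at 9.32, 9.50, 9.28 and 9.66 in RST mice, against 10.55, 10.92, 10.14 and 9.99 in control mice. The groups did not overlap, with a log2 fold change of −0.96 (SE 0.28, limma adjusted p = 0.32, exact permutation p = 0.029). The gene's remaining probe sets gave log2 fold changes of −1.00 and −0.96.

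The B cell-restricted genes were set against the shared genes to see whether one set was lower than the other. The mean log2 fold change was −1.09 over the 3 restricted genes and −1.00 over the 6 shared genes, a difference of −0.089. In single mice the restricted genes, relative to the control mean, were at −1.30, −0.72, −1.05 and −1.30 in RST mice 1 to 4, and at 0.39, 0.52, −0.46 and −0.44 in control mice 1 to 4. The shared genes were at −1.15, −0.60, −1.01 and −1.23 in the RST mice and at 0.33, 0.57, −0.31 and −0.60 in the control mice. The restricted minus the shared value was between −0.14 and −0.034 in the RST mice and between −0.16 and 0.15 in the control mice, so that the RST values lay inside the range of the control values. No test was made of this difference, since the genes were chosen with results of these data known. It was −0.21 when a gene was given the mean of its probe sets in place of the brightest one.

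**Figure D2:**
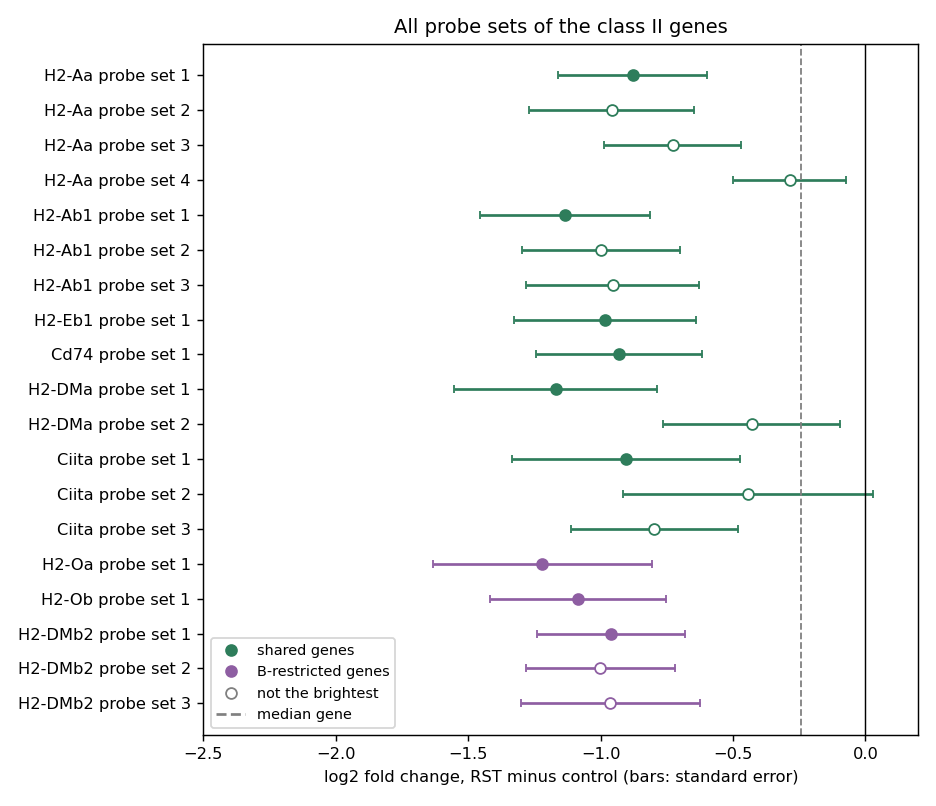
Log2 fold change (RST minus control) with its standard error (SE) for the 19 probe sets of the 9 class II genes, shared genes in green and B cell-restricted genes in purple, numbered within a gene by level in control mice; filled points are the brightest probe sets and the dashed line is the median gene at −0.24. All 19 points lie below 0, from −1.22 for H2-Oa to −0.29 for the dimmest H2-Aa probe set.

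The probe sets of a gene mostly gave like values. Of the 19 probe sets, 18 passed the intensity filter, all 19 averaged lower in RST mice, and 10 showed no overlap between the groups (5.76% of the 25084 probe sets tested were lower without overlap). The 3 probe sets of H2-Ab1 were between −1.13 and −0.95. The values nearest to 0 came from dim probe sets of H2-Aa and H2-DMa. Next was a Ciita probe set at −0.45, with means of 4.36 in RST mice and 4.81 in control mice. It was brighter than the Ciita probe set at −0.80 (3.68 and 4.48). The fourth H2-Aa probe set, which was left out by the filter, was at 1.63 ± 0.25 in RST mice and 1.92 ± 0.29 in control mice, which gave a log2 fold change of −0.29. The second H2-DMa probe set was at 3.04 ± 0.52 in RST mice and 3.47 ± 0.45 in control mice (SD, n = 4 each), which gave a log2 fold change of −0.43.

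A pair of control mice stood apart from the others. Control mice 1 and 2 were the highest pair of the 8 mice for all 9 genes, control mouse 2 being the highest for 7 and control mouse 1 for 2. Their arrays also had the highest medians over all tested probe sets, 5.10 and 5.09, against 4.31 to 4.92 in the other mice. With the median of each array subtracted, the 9 log2 fold changes were between −0.95 and −0.61. The lowest value fell to RST mouse 4 for 4 genes, RST mouse 1 for 3 and RST mouse 3 for 2. Control mice 1 and 2 and RST mouse 2 also stood apart in the control transcripts spiked into the hybridization (18 probe sets), which averaged 12.35 in RST mouse 2 and 12.71 to 12.73 in the other RST mice, against 11.93 and 11.90 in control mice 1 and 2 and 12.74 and 12.60 in control mice 3 and 4. RST mouse 2 was the highest of the RST mice for 5 of the 9 class II genes. Without control mice 1 and 2 the 9 log2 fold changes were between −0.77 and −0.34, with a median of −0.56, or −0.41 relative to the median gene. None of the 9 then passed an unadjusted p under 0.05 with more than 1.5-fold, in a fit with less power for every gene. The 9 log2 fold changes were between −1.22 and −0.88 in the main fit. Entered as a covariate, the hybridization controls put them between −0.83 and −0.36. Scaling the arrays to control probe sets moved them the other way, to between −1.42 and −1.08. The part of the hybridization controls in the class II differences was not tested further.

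**Figure D3:**
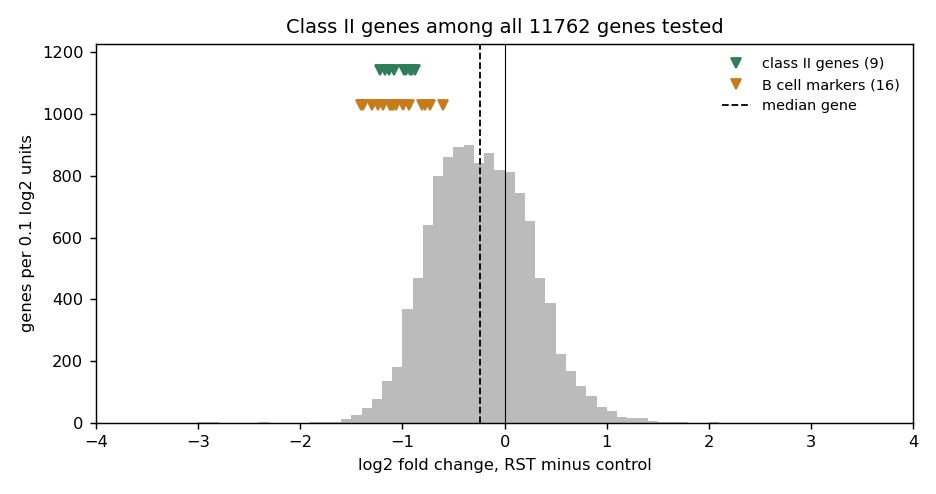
Number of genes per 0.1 log2 units of fold change (RST minus control) over the 11762 genes tested, each at its brightest probe set, with triangles for the 9 class II genes (green) and 16 B cell markers (orange) and a dashed line for the median gene at −0.24. The class II genes lie between −1.22 and −0.88, within the span of the B cell markers.

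Markers of B cells were lower in the same mice. Of 18 listed B cell markers 16 were measured, all 16 averaged lower in RST mice, and 11 showed no overlap (6.57% of all genes tested did so). Their median log2 fold change was −1.09, against −0.98 for the class II genes and −0.24 for the median gene. The smallest p of the list belonged to Ly6d, a surface protein of early and mature B cells, with 8.05, 8.21, 7.99 and 8.19 in RST mice, against 9.82, 9.86, 9.08 and 8.86 in control mice. Next came Fcrla, an Fc receptor-like protein inside B cells, with 6.91, 7.16, 6.45 and 6.05 in RST mice, against 8.40, 8.50, 7.82 and 7.41 in control mice. For both genes control mice 1 and 2 were again the highest. Cd79a, a signalling chain of the B cell receptor, was at 8.37, 8.59, 8.34 and 8.36 in RST mice, against 9.66, 9.89, 9.06 and 8.78 in control mice. The mean level of the 16 markers was between 6.88 and 7.35 in RST mice and between 7.60 and 8.59 in control mice, without overlap.
The class II genes followed the B cell markers mouse by mouse. Relative to the control mean, the 16 markers were at −1.05, −0.81, −1.08 and −1.27 in RST mice 1 to 4 and at 0.38, 0.44, −0.27 and −0.55 in control mice 1 to 4. The 9 class II genes minus these markers gave 0.024 ± 0.13 in RST mice and 0.00 ± 0.083 in control mice (SD, n = 4 each), and no test was made of this difference. The part of the B cell markers in the class II result was not tested further.

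Markers of the other class II-bearing cells had smaller median differences, with a wide spread between mice. Their mean levels differed by −0.31 for monocytes (pooled SD 0.65) and −0.36 for dendritic cells (pooled SD 0.49). Dendritic markers such as Cd209a (2.78 in RST, 3.65 in control mice) and Zbtb46 (3.13 and 3.49) were dim, while Itgax was brighter (5.44 and 5.92). Whether these markers moved less than the class II genes was not tested. The 6 monocyte markers measured, of 8, had a median log2 fold change of −0.41, and 5 averaged lower in RST mice. Ccr2, the chemokine receptor of inflammatory monocytes, was at −0.75 and Csf1r, the receptor of their growth factor, at −0.61, each with overlapping groups. The mean level of the 6 markers overlapped as well, from 5.36 to 6.77 in RST mice and from 5.67 to 7.06 in control mice. Of 8 dendritic cell markers 7 were measured and 5 passed the intensity filter, with a median of −0.36 and mean levels of 3.42 to 4.45 in RST mice and 3.89 to 5.06 in control mice. Cd209a, a lectin of dendritic cells, was at −0.86 and Itgax, the integrin chain CD11c, at −0.48, and their groups overlapped. The listed markers Flt3 and Xcr1 did not pass the filter, with means of 3.14 and 2.35 in RST mice and 2.91 and 2.26 in control mice. Siglech, a marker of plasmacytoid dendritic cells, was at 4.19 ± 0.28 in RST mice and 4.21 ± 0.15 in control mice.
T cells of the mouse carry little class II, and their markers were lower as well. All 7 measured T cell markers, of 8, averaged lower in RST mice, with a median of −0.90, and 1 of the 7 was lower without overlap, against 6.57% of all genes tested. This was Cd3d, a chain of the T cell receptor complex, at 7.77 ± 0.25 in RST mice and 8.77 ± 0.22 in control mice, while Cd8b1, a chain of the CD8 coreceptor, was at 5.61 ± 0.47 in RST mice and 6.64 ± 0.44 in control mice. Neutrophil markers had a median of 0.041 (5 of 6 measured, 2 with a lower and 3 with a higher mean in RST mice), and erythroid markers one of 0.52 (6 of 9 past the filter, all 6 with a higher mean in RST mice). Among the erythroid genes, the membrane skeleton proteins Ank1 and Epb42 were at 1.33 and 1.36. In 4 of the 6 each RST mouse was above each control mouse. Counted over probe sets and not over genes, 2.23% of those tested were higher without overlap. Whole blood was thus represented by markers of its main cells in both groups, with the neutrophil granulocyte proteins S100a8 at 11.07 in RST mice and 11.60 in control mice and S100a9 at 11.80 in RST mice and 12.35 in control mice. These were the neutrophil markers with a lower mean, while Cxcr2, a chemokine receptor of neutrophils, was at 0.35, Csf3r, the receptor of their growth factor, at 0.13, and Mmp9, a granule protease, at 0.041, and the groups overlapped for all 5.

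**Figure D4:**
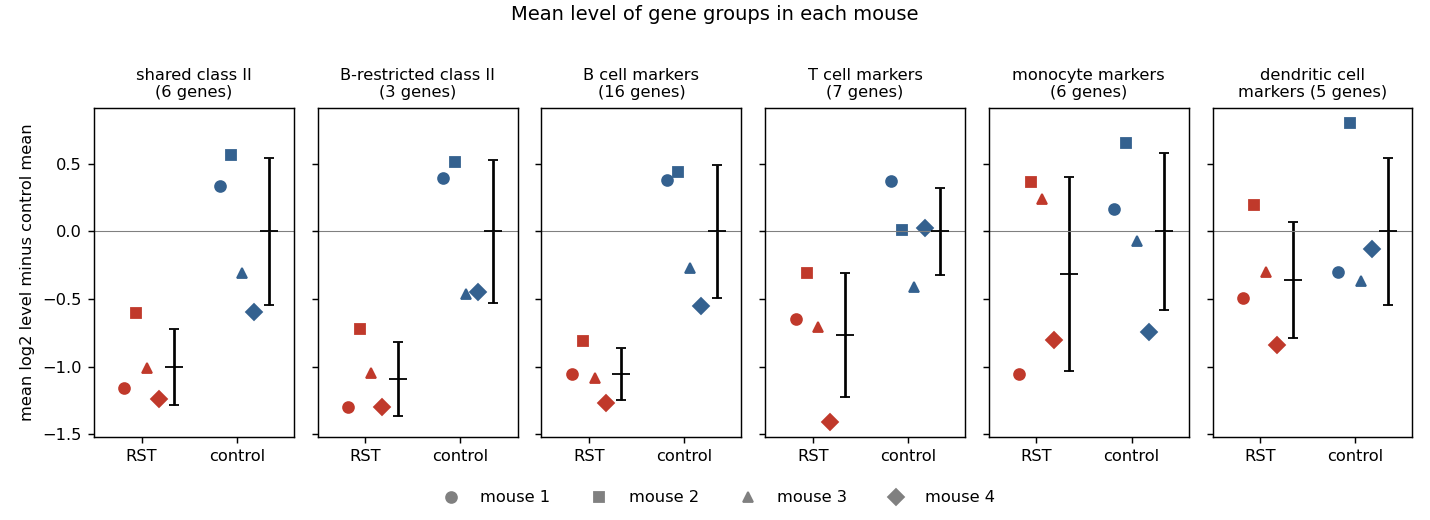
Mean log2 level of 6 gene groups in each of 4 RST (red) and 4 control (blue) mice, as the difference from the control mean, with 1 marker shape per mouse number and black bars for mean ± SD. The shared class II genes (−1.00 ± 0.28 in RST mice), the B cell-restricted class II genes (−1.09 ± 0.27) and the B cell markers (−1.05 ± 0.19) ranked control mice 1 and 2 highest. The T cell, monocyte and dendritic cell markers overlapped between the groups.

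The factors that bind class II promoters had a median near that of all genes. Of 7 such genes 6 averaged lower in RST mice, with a median log2 fold change of −0.29 against −0.24 for the median gene. Rfx5, a DNA-binding subunit of the RFX complex, whose loss in people causes bare lymphocyte syndrome, was at 7.06, 6.72, 6.56 and 5.95 in RST mice, against 7.61, 8.05, 7.06 and 7.24 in control mice. These values did not overlap, with control mouse 3 only just above RST mouse 1, and its log2 fold change was −0.92 (SE 0.32, limma adjusted p = 0.32, exact permutation p = 0.029). Nfya, a subunit of the Y box factor NF-Y, was at 5.99 ± 0.68 in RST mice and 6.67 ± 0.49 in control mice (a log2 difference of −0.68). The other NF-Y subunits, Nfyb and Nfyc, were at −0.29 and −0.12. Of the other RFX subunits, Rfxap was at −0.64 and Rfxank at 0.026, and Creb1, which encodes CREB, was at −0.11, with overlapping groups for each of these genes.

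Genes upstream of Ciita had a median near that of all genes. Of 12 listed 11 were measured and 9 passed the filter, and all 9 had a lower mean, with a median log2 fold change of −0.17. Irf8, a transcription factor of B cells, monocytes and dendritic cells, was at 6.05 ± 0.88 in RST mice and 7.05 ± 0.46 in control mice (a log2 difference of −1.00, SE 0.42, limma adjusted p = 0.35). Its groups overlapped, and RST mouse 4 was the lowest of the 8 mice at 4.80. Irf4, Prdm1 and Ifngr2 were at −0.61, −0.48 and −0.45, each with overlapping groups and more shifted than the median gene. The interferon-gamma receptor chain Ifngr1 was at −0.17 and Irf1, a transcription factor induced by interferon-gamma, at −0.16, both less shifted than the median gene. Jak1 and Jak2 were at −0.14 and −0.027. Spi1, which encodes the myeloid and B cell factor PU.1, was at −0.10. Pax5 and Socs1 did not pass the filter. Socs1, an inhibitor of cytokine signalling, had the smallest p of this list in a fit of all probe sets, with means of 2.27 in RST mice and 1.70 in control mice that are among the dim values of the arrays.

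Genes that prepare peptides or clear class II from the surface had means on both sides of the control mean. Of 8 endosomal proteases and reductases 6 had a lower and 2 a higher mean in RST mice, with a median of −0.25. Ctss, the cathepsin that makes the last cuts in the invariant chain, was at 9.78, 10.39, 10.40 and 10.23 in RST mice, against 11.08, 11.52, 10.90 and 10.54 in control mice. The groups did not overlap (log2 fold change −0.81, SE 0.29, limma adjusted p = 0.32). Ctsh, an aminopeptidase of the endosome, was at 6.89 ± 0.37 in RST mice and 7.84 ± 0.57 in control mice (a log2 difference of −0.95).
Ctsb, a cathepsin found in most cells, was higher in each RST mouse, at 12.08, 12.25, 11.91 and 11.99, against 11.07, 11.21, 11.61 and 11.62 in control mice. Its log2 fold change was 0.68 (SE 0.25, limma adjusted p = 0.33). Marchf1, the ubiquitin ligase that takes class II and CD86 from the surface of B cells and dendritic cells, was at 5.92 ± 0.72 in RST mice and 6.86 ± 0.80 in control mice (a log2 difference of −0.94), and the groups overlapped. Its relative Marchf8 was at 9.30, 9.44, 8.97 and 8.76 in RST mice, against 8.11, 7.48, 8.14 and 8.62 in control mice, higher without overlap (log2 fold change 1.03, SE 0.30, limma adjusted p = 0.32).
Among costimulatory genes, Icosl was at −0.88 and Cd40 at −0.59, both with overlapping groups, and the ligands of CD28, Cd86 and Cd80, were at −0.57 and 0.054.

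The other genes of the class II region of chromosome 17 averaged lower too. Of 7 such genes 6 passed the filter, all 6 had a lower mean in RST mice with overlapping groups, and their median log2 fold change was −0.79. The peptide transporter subunit Tap1 was at 7.03 ± 0.39 in RST mice and 7.74 ± 0.31 in control mice (a log2 difference of −0.71), and the immunoproteasome subunit Psmb9 at −0.95. Both serve MHC class I. H2-Eb2, a class II beta chain gene outside the 10, was at 4.42 ± 0.71 in RST mice and 5.29 ± 0.60 in control mice, which gave a log2 fold change of −0.86. The bromodomain gene Brd2, which lies between the class II genes and has no known part in presentation, was at −0.94 (SE 0.52). RST mouse 4, whose array held the lowest value of 41.5% of the tested probe sets, was the lowest of the 8 mice for all 6 genes. Brd2 was at 4.26 in that mouse, against 6.12, 7.07 and 6.33 in RST mice 1 to 3. The part of this array in the differences of the region was not tested.

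Outside the 10 genes, the patterns most like that of the shared class II genes were those of Ctsh, Ubtf, Sem1, St6gal1 and Rab14. Likeness was measured as Pearson's r over the 8 arrays with the median of each array subtracted, and it was between 0.976 and 0.989 for these 5 of 11762 genes. All genes were measured on the same 8 arrays, and r with the group means removed was between 0.943 and 0.979. Ubtf, a factor of ribosomal RNA transcription, had a log2 fold change of −0.84, and St6gal1, a sialyltransferase that makes the ligand of the B cell receptor CD22, one of −0.77.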

How the data were processed

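The values deposited by the authors are log2 levels of probe sets that were corrected for background, normalized across the arrays and summarized. RMA, Partek and Affymetrix Expression Console (version 1.2.0.20) are listed by the submitters, while GSRMA in Partek is given in the methods. Scanner values, presence calls, slides and scan dates were not used here. Probe sets above their array's median in at least 2 mice of a group were tested (25084), in place of the presence calls of the methods and without the 64 control probe sets. RST was set against control in R 4.3.3 using limma 3.58.1 (lmFit, eBayes, Benjamini-Hochberg over all tested probe sets) and called at an adjusted p under 0.05 and more than 1.5-fold. A gene is its brightest probe set past the filter. Probe sets below the filter have values from a separate fit without the filter. Symbols come from the platform annotation (34958 probe sets with 1 gene), updated through Entrez identifiers. Single genes were also compared by exact permutation of 4 against 4 mice. The members and lists were chosen with earlier results of these data known. Named are every member, the 2 genes of each further list with the smallest p, and the 5 most alike genes. Further list genes were named for their role after their values were seen (the remaining promoter factors, Ciita inputs and costimulatory genes, Cd79a, Cxcr2, Csf3r, Mmp9, Flt3, Xcr1, Siglech, H2-Eb2, Brd2 and H2-Ea among them). Data were simulated for the tested probe sets with independent normal noise and 50 probe sets raised at each fold. There limma called 4% of them at 2-fold, 54% at 4-fold and 88% at 8-fold. Shifts shared by many probe sets of an array were not simulated, so these shares may not hold for the real arrays. Alternatives changed the filter, normalization, array weights, prior, test, probe set, block, covariate and arrays. Python 3.11.15 and matplotlib 3.10.9 drew the figures.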

Additional observations from a re-analysis of the deposited data

How the results depend on the processing

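All 198 log2 fold changes of the 9 genes over 22 alternatives stayed below 0 and none passed the adjusted threshold. The tested probe sets kept 0 calls in limma except with a trended and robust prior, which called 35, none of them at a class II gene's brightest probe set (smallest adjusted p 0.063, H2-DMb2). An equal-variance test of each probe set alone, equal to a two-group analysis of variance, gave 0 adjusted calls and 8 class II genes lower at an unadjusted p under 0.05. That count, 8 of 9, was 4 with the hybridization controls as a covariate and 0 without control mice 1 and 2. It was 2 without control mice 1 and 2 and RST mouse 2, an alternative chosen after seeing the data. In the main fit 12.8% of all genes tested were lower by this rule, and no such share was taken in the alternatives. Leaving out mice lowers the power for every gene. The median log2 fold change of the genes, −0.98, was −0.56 without control mice 1 and 2. Leaving out 1 mouse at a time gave medians from −1.21 to −0.82 and counts of 8 to 9. The difference of the B cell-restricted from the shared genes, −0.089, ran from −0.14 to −0.039 without 1 mouse and was −0.21 with the mean of a gene's probe sets. Normalization moved the median gene: the class II median relative to it was −0.74, and −0.92 after quantile normalization. With the array median subtracted the class II median was −0.72 and the unadjusted count 6. Scaled to control probe sets these were −1.19 and 9. Relative to the median gene both settings gave −0.74. Replicate numbers shared by both groups did not pair the mice (correlation of deviations −0.25, 0.42, 0.046 and 0.20). With the replicate block 0 genes passed and 9 were lower at the unadjusted threshold.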
